A study of Equus caballus with 13 samples.

Results

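Decorin (DCN), biglycan (BGN), lumican (LUM), fibromodulin (FMOD), PRELP, epiphycan (EPYC), chondroadherin (CHAD) and chondroadherin-like protein (CHADL) were chosen by name as small leucine-rich repeat proteins of the cartilage matrix. All 8 were listed in both deposited tables of RNA kinetics, among 11056 genes in the table for age, 11249 in the table for sex and 10974 common to both. The cells were cultured chondrocytes from cartilage of wild-type (WT) horses: old female (5 samples), young female (5 samples) and young male (3 samples), with ages in years not stated. All 13 samples were treated with 4-thiouridine (4sU), a uridine analogue that marks RNA made during labelling, for 4 h after 2 days of culture away from the cartilage, and no unlabelled group was given. By its title, the study asked how RNA is regulated after transcription in joint tissues of different age and sex.

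Small leucine-rich repeat proteins are secreted, and their curved repeat domains bind collagen. Decorin and biglycan carry chondroitin or dermatan sulfate chains and bind TGF-beta as well as collagen. Fibromodulin, lumican and PRELP form a second class, of which fibromodulin and lumican can carry keratan sulfate and compete for sites on collagen fibrils. Epiphycan is of another class, known from growth plate cartilage. Chondroadherin and chondroadherin-like protein carry no such chains, bind collagen II and are characteristic of cartilage, where chondroadherin also binds an integrin on the chondrocyte.

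Each table gave 1 value per gene and group, the authors' estimate of a synthesis rate and of a half-life, so that no spread between horses accompanied any value and no difference could be tested against it. Differences are described by size, and a gene was counted when its log2 ratio was at least 1 in either direction, a change of 2-fold. Half-lives were read as hours and synthesis rates as arbitrary units, since the headers gave no unit. The product of both, divided by ln 2, was used as an implied steady-state RNA level in arbitrary units, whose scale per gene length is not known, so levels were compared between groups within a gene; sums over marker lists carry this unknown weighting. The 13 samples carried 12 batch numbers, 5 among old female, 5 among young female and 3 among young male samples. Only batch 10 held samples of 2 groups. With 1 value per group, the part of batch in a difference between groups could not be separated. In bulk RNA, fewer cells of a kind and less RNA per cell cannot be told apart either.

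Both tables drew on the same 5 young female samples, which shows how far the members' estimates moved with the estimation alone. Their young female half-lives differed by at most 0.522% between tables. Their young female levels were offset by at most 0.07 on the log2 scale, close to the median offset of all shared genes (0.955-fold). This repeat holds no variation between animals.

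The RNAs of all 8 genes were long-lived in every group. In young female cells of the age table their median half-life was 36.6 h, against 3.64 h over all genes, and 7 of the 8 lay in the top 10% of half-lives. Epiphycan RNA had the shortest at 17.6 h, followed by lumican at 19.2 h, PRELP at 26.8 h and fibromodulin at 29.1 h. Decorin followed at 44.0 h, chondroadherin-like at 53.9 h and biglycan at 62.9 h. Chondroadherin stood at 69.3 h, the ceiling of the tables, which 91 genes reached in that column. The order of the 8 genes was the same in old female cells, from 20.4 h for epiphycan to the ceiling for chondroadherin. In young male cells the order was different: PRELP had the shortest half-life at 34.8 h, then lumican at 42.1 h, chondroadherin-like at 60.8 h, fibromodulin at 62.4 h and epiphycan at 69.0 h, with the other 3 at the ceiling. The step between any 2 neighbours in this order has no error, so none can be called larger than the spread between animals.

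Such half-lives rest on little labelled RNA. Under a one-step decay, 4 h of labelling renews 3.92% of an RNA at the ceiling. In young female cells the implied renewed share was 14.6% for epiphycan, 13.5% for lumican and 9.82% for PRELP, and it was 6.11% for decorin and 4.31% for biglycan. A range of 1 to 24 h was taken as resolvable by this labelling, and only epiphycan and lumican were inside it in young female cells. Epiphycan alone stayed inside in old cells, and in young male cells 0 of the 8 did.

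**Figure D1:**
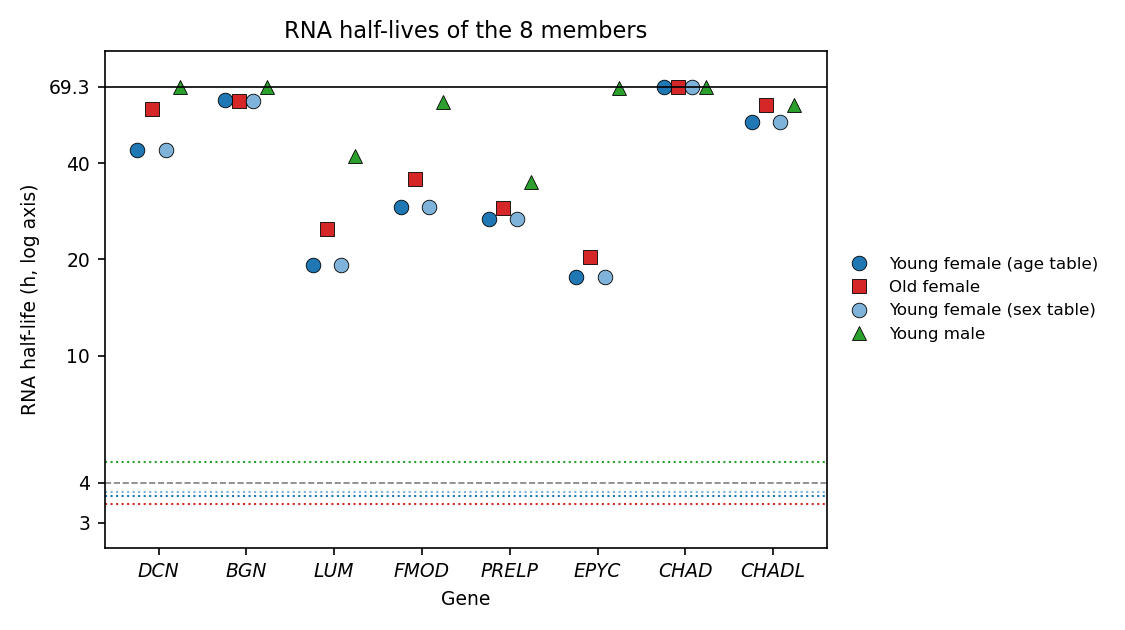
RNA half-life in hours (log axis) of the 8 genes in each group; each point is the authors' single group value, dotted lines are the medians of all genes in the same colours, the dashed line is the 4 h labelling time and the solid line the 69.3 h ceiling. The 8 genes lie far above the medians of 3.43 to 4.63 h, and the young male values of DCN, BGN and CHAD sit on the ceiling.

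The age comparison set old against young female cells. Lumican, epiphycan and decorin RNAs had higher levels in old cells, by 7.91-, 6.12- and 2.56-fold, while the other 5 were within 2-fold of young cells. The 3 genes counted upward compare with 2.13% of all 11056 genes, and 0 of the 8 were counted downward (1.99% of all genes). The median log2 level ratio of the 8 was 0.36, against 0.00 over all genes. The ratios lay on both sides of 0, from −0.61 to 2.98.

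Decorin, which limits the lateral growth of collagen fibrils, had an implied level of 149775 in young and 382899 in old female cells. Its synthesis rate was 2359 in young and 4490 in old cells (log2 ratio 0.93), and its half-life was 44.0 and 59.1 h (0.43). Neither parameter reached 2-fold alone, and the counted level ratio of 1.35 came from both. Biglycan, its closest relative, had levels of 74781 in young and 60307 in old cells, with a log2 ratio of −0.31. The half-life of biglycan was nearly the same in both, 62.9 and 62.7 h, and its synthesis rate was 824 in young and 667 in old cells. The ratios of decorin and biglycan thus had opposite signs.

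Lumican had a level of 8012 in young and 63402 in old female cells, and this log2 ratio of 2.98 ranked number 7 from the top among all genes of the table. Its synthesis rate was 290 in young and 1769 in old cells, a log2 ratio of 2.61 that made up 87.4% of the level ratio, with the half-life (19.2 and 24.8 h) giving the rest. Fibromodulin, which shares collagen sites with lumican, was higher by 1.64-fold, from a level of 72010 to 118171. The fibromodulin ratio of 0.71 stayed under the 2-fold threshold, with a synthesis rate of 1714 in young and 2287 in old cells and a half-life of 29.1 and 35.8 h. PRELP, which anchors basement membranes to connective tissue, had levels of 207446 in young and 198716 in old cells, a log2 ratio of −0.06. Behind this stood a synthesis rate of 5360 in young and 4747 in old cells and a half-life of 26.8 and 29.0 h, small differences of opposite sign. The 3 related genes of this class thus ran from near 0 for PRELP to almost 3 log2 units for lumican.

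Epiphycan had a level of 383 in young and 2343 in old female cells, and its log2 ratio of 2.61 ranked number 13 from the top. Its synthesis rate was 15.1 in young and 79.7 in old cells (log2 ratio 2.40), or 91.9% of the level ratio. Of the 8 genes only epiphycan had half-lives inside the resolvable range in young and old cells alike, 17.6 and 20.4 h.

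Chondroadherin had levels of 69624 in young and 69917 in old female cells, a log2 ratio of 0.01. Its half-life stood at the ceiling in both, so a difference in its half-life was not detectable. At the ceiling the listed synthesis rate equals the level times 0.01 per h, so it gives no separate information on synthesis. Chondroadherin-like protein was lower in old cells, with a level of 2992 in young and 1966 in old cells and a log2 ratio of −0.61, the lowest of the 8. Its synthesis rate was 38.5 in young and 22.3 in old cells (−0.79), while its half-life was 53.9 and 61.1 h. At a lower threshold of 0.5 it was the only 1 of the 8 counted as lower, for synthesis rate (8.18% of all genes) and for level (7.37%). For synthesis rate 2 of the 8 genes were counted upward, lumican and epiphycan (4.59% of all genes), and for half-life 0 of the 8 were counted longer (1.47% of all genes). DCN, CHADL, BGN and CHAD could not have been counted longer. A value 2-fold above their young female half-lives (44.0, 53.9, 62.9 and 69.3 h) would lie beyond the ceiling. Half-lives were longer in old cells for 6 of the 8, against 36.5% of all genes; the median log2 ratio was 0.20 for the 8, −0.08 over all genes and 0.00 in the 10% of genes with the longest half-lives in male cells, to which all 8 belong.

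**Figure D2:**
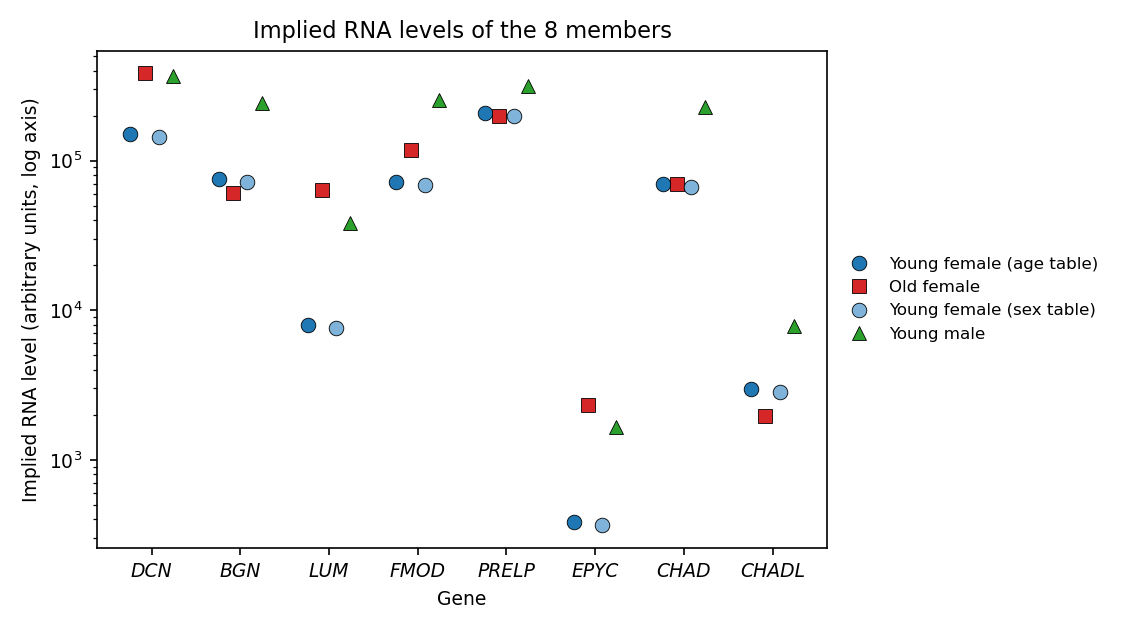
Implied RNA level (arbitrary units, log axis) of each gene in each group; each point is 1 group value, and points may be compared within a gene only. In old female cells LUM, EPYC and DCN lie more than 2-fold above the young female values and FMOD 1.64-fold, while in young male cells all but PRELP lie more than 2-fold above.

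The sex comparison set young male against young female cells. The RNAs of all 8 genes had higher levels in young male cells, by 1.59-fold for PRELP to 5.00-fold for lumican, and 7 were counted as at least 2-fold higher. Among all 11249 genes 3.00% were counted upward and 50.5% had any ratio above 0. The median log2 level ratio of the 8 was 1.78, against 0.01 over all genes.

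Long-lived RNAs as a whole had higher levels in male cells. All 8 genes belonged to the 10% of genes with the longest half-lives, ordered by the old female half-life, which does not enter the male to female ratio. Within that 10% (1098 genes) the median log2 level ratio was 0.43, and 11.6% of genes were counted upward. That share compares with 7 of the 8. Relative to the median of that 10%, the median log2 level ratio of the 8 was 1.35. Decorin, at 0.94, and PRELP, at 0.24, were then under the threshold. Level ratios of the further gene and marker lists were not centred in this way.

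Decorin had a level of 143018 in female and 369746 in male cells, a log2 ratio of 1.37. Biglycan, whose gene is X-linked, had a level of 71402 in female and 244309 in male cells (1.77). Both RNAs stood at the ceiling half-life in male cells, from 43.9 h for decorin and 62.6 h for biglycan in female cells, so their male half-lives are lower bounds. If the true male half-life is longer, the male synthesis rate is lower than the one listed, which was 3697 against 2256 for decorin and 2443 against 790 for biglycan. Both proteoglycans stood more than 2-fold higher in male cells.

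Lumican had a level of 7643 in female and 38188 in male cells, a log2 ratio of 2.32. Its synthesis rate (275 and 628) and its half-life (19.3 and 42.1 h) were each counted, with log2 ratios of 1.19 and 1.13. Lumican was the only 1 of the 8 counted in both parameters, and its half-life ratio fell under the threshold after centring on all genes (0.86) or within half-life deciles (0.62). For CHAD, BGN and CHADL, also counted in synthesis rate, the ceiling left no room for a counted half-life ratio. Fibromodulin had a level of 68788 in female and 255370 in male cells (1.89), with a half-life of 29.1 and 62.4 h (1.10) and a synthesis rate of 1638 and 2836 (0.79). PRELP had a level of 198056 in female and 315185 in male cells, a log2 ratio of 0.67 that was not counted, with synthesis rates of 5124 and 6271 and half-lives of 26.8 and 34.8 h. In this class the lumican and fibromodulin ratios were the larger and that of PRELP the smallest.

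Epiphycan had a level of 366 in female and 1659 in male cells, a log2 ratio of 2.18. Its synthesis rates were nearly alike, 14.4 and 16.7 (0.21), and its half-life was 17.6 h in female and 69.0 h in male cells (1.97). In old cells 91.9% of its level ratio lay in the synthesis rate, and in male cells 9.67% did. Expressed as labelled RNA, the amount implied to be made and kept over the 4 h was 53.3 in female and 65.4 in male cells, and the renewed share was 14.6% and 3.94%. The male share lies just above the 3.92% that marks the ceiling.

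Chondroadherin had a level of 66529 in female and 228021 in male cells, a log2 ratio of 1.78 that its synthesis rate shares, since both half-lives stood at the ceiling. Chondroadherin-like protein had a level of 2857 in female and 7788 in male cells (1.45). Its listed half-life was 53.8 h in female and 60.8 h in male cells, and its listed synthesis rate 36.8 and 88.8 (log2 ratio 1.27). Both half-lives lie outside the resolvable range and near the ceiling, so the split of its level ratio between the parameters is not resolved. Both chondroadherins were thus more than 2-fold above the young female level in male cells.

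The labelled RNA implied by the tables is computed from the same 2 parameters, and for long half-lives it follows the synthesis rate closely. For CHAD in both groups, and for DCN and BGN in male cells, it is set by the ceiling. In male cells its log2 ratio was above 0 for all 8 genes, from 0.29 for epiphycan and 0.31 for PRELP to 1.78 for chondroadherin, with a median of 1.04 against −0.23 over all genes. In old cells it ran from −0.78 for chondroadherin-like to 2.63 for lumican, with a median of 0.22 against 0.04 over all genes. For lumican and epiphycan in old cells (2.63 and 2.42) it was close to the synthesis ratio, and in male cells it was 1.25 and 0.29. The age and sex ratios share the young female libraries and are given side by side only.

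Over the 8 genes, synthesis rates were counted as higher in male cells for 4 (CHAD, BGN, CHADL and LUM; 3.78% of all genes), and all 8 had a ratio above 0, against 28.9% of all genes. The median log2 synthesis ratio was 0.99 for the 8 and −0.05 in the 10% of genes with the longest half-lives in old female cells. CHAD stood at the ceiling in both groups and BGN in male cells, and without genes at the ceiling 2 of 5 were counted (CHADL and LUM). Half-lives were counted as longer for 3 (EPYC, LUM and FMOD), against 5.62% of all genes. DCN, CHADL, BGN and CHAD could not have been counted, since 2-fold above their female half-lives (43.9 to 69.3 h) lies beyond the ceiling. The median log2 half-life ratio was 0.52 for the 8 and 0.51 in the 10% of genes with the longest half-lives in old female cells. Relative to the median of that 10%, only 1 was counted as longer (EPYC, 1.47). All genes were shifted toward longer half-lives in male cells by a median log2 ratio of 0.27 and toward lower synthesis rates by −0.28. Relative to that shift lumican and fibromodulin fall under the half-life threshold, at 0.86 and 0.83, fibromodulin enters the synthesis count at 1.07, and epiphycan stays above the half-life threshold at 1.70.

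**Figure D3:**
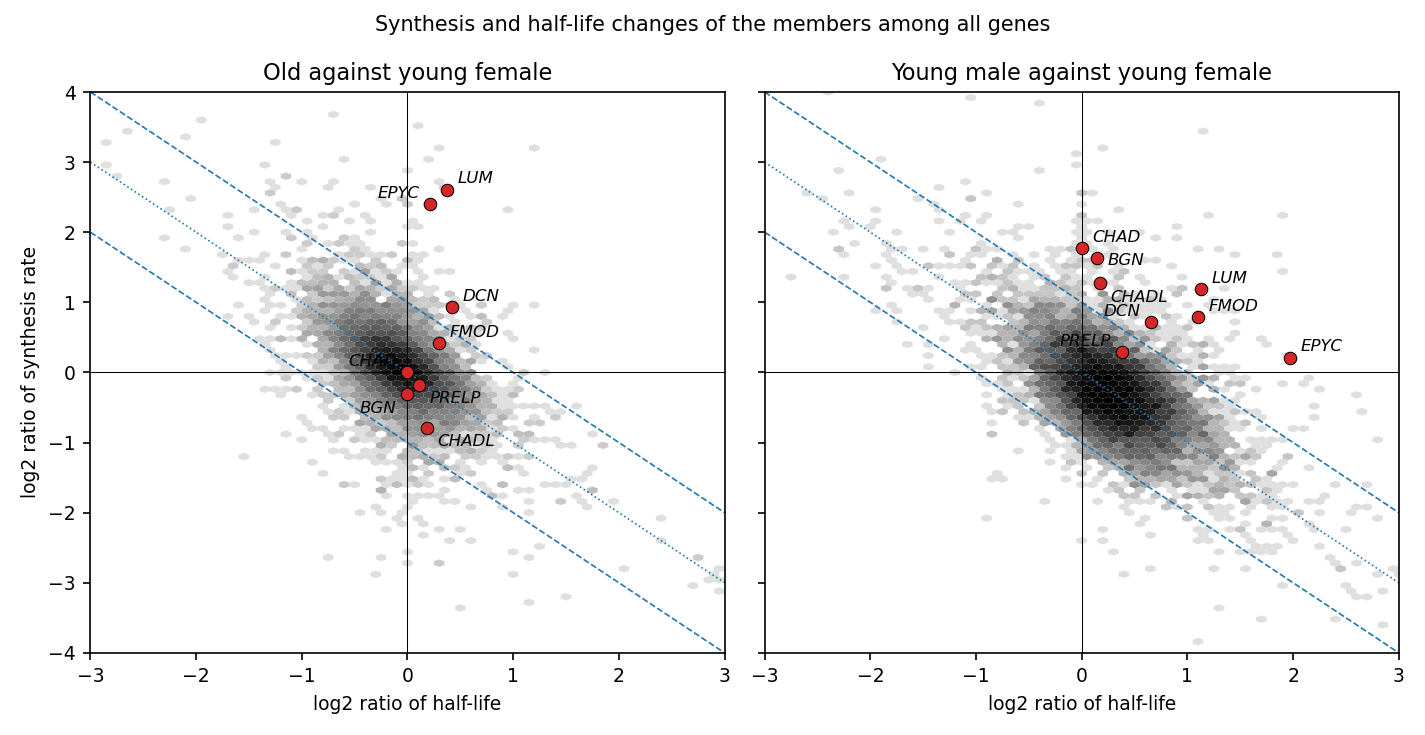
Log2 ratios of half-life and of synthesis rate in old against young female cells (left) and young male against young female cells (right); red points are the 8 genes, grey cells the density of all genes (log colour scale), with 190 and 180 genes outside the axes. Level is unchanged along the dotted line and 2-fold different along the dashed lines. LUM, EPYC and DCN lie beyond the upper dashed line on the left and all but PRELP on the right, with EPYC displaced mainly along the half-life axis.

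Gene order offers another description of the set. By the RefSeq annotation of the thoroughbred reference assembly, a different build from that of the authors, used for names and order only and matched for all 18 small leucine-rich genes looked up, EPYC, KERA, LUM and DCN are consecutive protein-coding genes. KERA, which encodes the corneal proteoglycan keratocan, was listed in neither table. The other 3 are the same 3 genes counted upward in old cells, a relation noticed after their values were seen. FMOD and PRELP are also neighbours, with log2 level ratios of 0.71 and −0.06 by age and of 1.89 and 0.67 by sex, so neighbours did not always have like ratios.

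Other small leucine-rich genes were looked up as a list of 10, of which 7 were in both tables; OPTC and NYX, like KERA, were in neither. Their median log2 level ratio was 0.66 in old cells, with 2 of 7 counted upward, and 0.87 in male cells, with 3 of 7 counted upward. Osteoglycin (OGN) was counted in both, at 1.17 and 1.21, and so was PODNL1, at 1.20 and 1.38. Osteomodulin (OMD) was counted in male cells (1.07) and stood at 0.66 in old cells. Asporin (ASPN), a relative of decorin that binds collagen and TGF-beta, had −0.02 and 0.87, and ECM2, encoded beside it, had 0.66 and 0.74. PODN stood at 0.06 and 0.68, and TSKU at −0.32 and −0.10.

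Of these relatives, 2 had short half-lives. TSKU, which encodes the secreted signalling modulator tsukushi, had a half-life of 2.17 h in young female cells, and PODN had 2.32 h. ASPN, OGN, OMD and ECM2 had 23.8, 31.4, 27.6 and 25.2 h, inside the range of the 8 genes. PODNL1 stood at the ceiling in young female cells and at 15.9 h in old cells, with log2 ratios of −2.12 for half-life and 3.32 for synthesis rate by age. In male cells ASPN and OGN stood at the ceiling, as OGN did in old cells. Synthesis rates of ASPN were lower in old cells (log2 ratio −1.08), unlike those of LUM and EPYC.

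The collagens that these proteins bind had level ratios above 0 in male cells for 10 of 10 genes, against 50.5% of all genes. In old cells 7 of the 10 were below 0, as were 5454 of all 11056 genes. Of 10 collagen genes, 7 had level ratios counted upward in male cells, with a median log2 ratio of 1.51 and the largest for COL1A1 (4.19), COL1A2 (3.40) and COL5A2 (2.16). Their half-lives in young female cells were long, 17.0 to 59.4 h in the sex comparison. In the 10% of genes with the longest half-lives in old female cells, 11.6% were counted upward by sex and the median log2 level ratio was 0.43. In old cells 0 were counted upward and 3 downward, COL1A1 (−2.86), COL1A2 (−1.82) and COL3A1 (−1.12), with a median of −0.49. Lumican and decorin were thus higher in old cells in which the genes of collagens I and III had lower RNA levels.

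Enzymes that build the sugar chains showed no counted level ratio in either comparison. Few genes of any kind were counted for level: 2.13% upward and 1.99% downward by age, and 3.00% upward and 181 of 11249 downward by sex. The absence of counted genes in such short lists therefore says little about these enzymes. Of the genes for chain attachment and dermatan sulfate, 11 of 12 were listed. In old cells their level ratios ran from −0.91 to 0.00 (median −0.17). All 11 were below 0, as were 5454 of all 11056 genes. In male cells they ran from −0.81 to 0.79 (median 0.31), with 9 above 0 and 2 below. Of the 8 genes for keratan sulfate and tyrosine sulfation, all were listed. They ran from −0.52 to 0.36 in old cells (median −0.12, 2 above 0 and 6 below). In male cells they ran from −0.65 to 0.85 (median 0.29, 6 above 0 and 2 below). Of 8 proteases known to cleave members of the family, 3 were counted as lower in old cells (MMP2, −1.29; MMP3, −1.26; ADAMTS4, −1.13), and 2 as higher in male cells (HTRA1, 1.26; MMP13, 1.25). The protease ratios lay on both sides of 0, from −1.29 to 0.97 (median −0.43) in old and from −0.89 to 1.26 (median 0.38) in male cells. Of 12 growth factor and receptor partners 11 were listed and 0 were counted in either comparison, with ratios from −0.72 to 0.59 (median 0.28) in old and from −0.98 to 0.67 (median 0.17) in male cells.

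**Figure D4:**
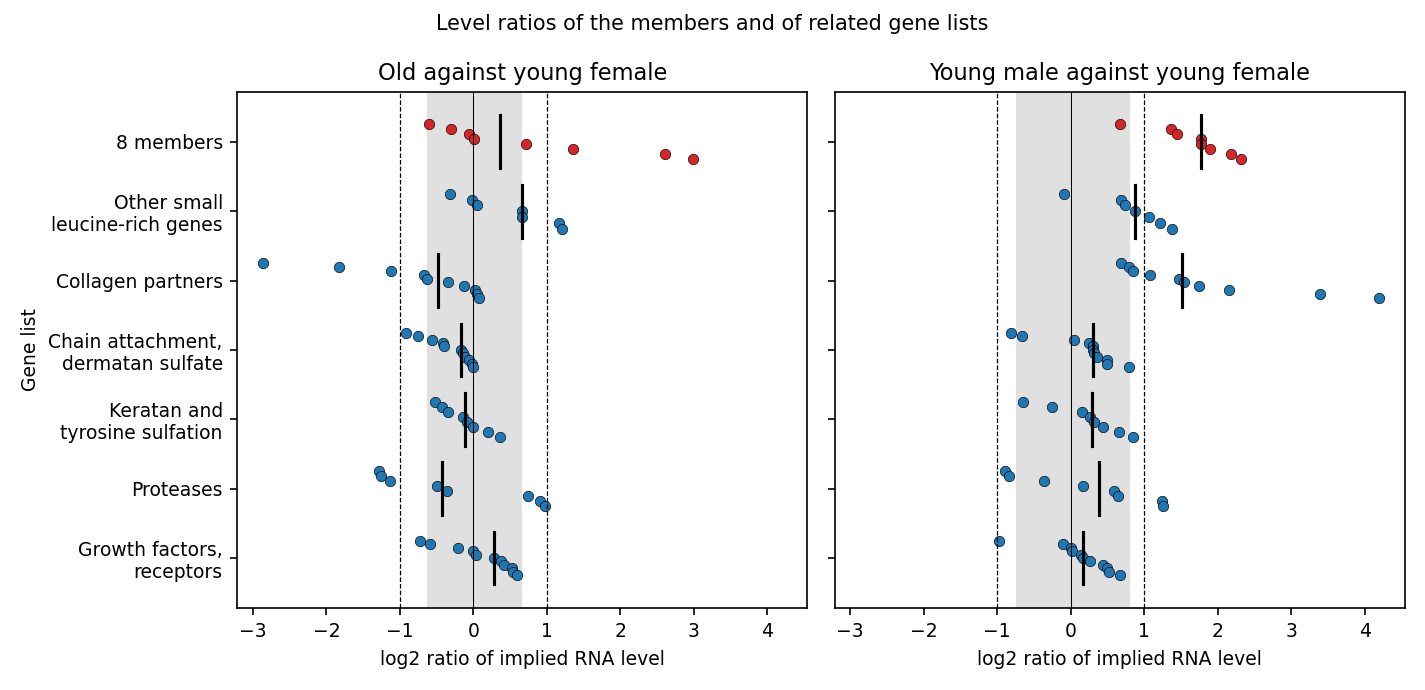
Log2 ratio of implied RNA level for the 8 genes (red) and 6 related gene lists (blue) in both comparisons; each point is 1 gene, black bars are list medians, dashed lines mark 2-fold and the grey band holds the central part of all genes (−0.62 to 0.65 by age, −0.73 to 0.79 by sex, with 5% of genes on each side). The 8 genes spread to both sides of 0 by age and lie at 0.67 or more by sex.

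Marker lists of chondrocytes and of other cells were read in the same tables. Lists with more than 1 gene listed are given by counts and median log2 level ratio, and all by their summed level divided by 1000, a sum that follows the genes with the highest listed values. Of 10 chondrocyte markers, all listed, 7 were lower in old cells (median −0.37), with HAPLN1 counted downward (−1.01) and COMP opposed at 0.83. Their summed level was 1757 in young and 1586 in old female cells of the age table. In male cells 9 of the 10 were higher (median 1.55), with 6 counted upward and sums of 1678 for young females and 4161 for young males. Fibroblast or dedifferentiation markers were lower in old cells for 7 of 7 listed (median −1.03, 4 counted downward; sums 217 in young and 111 in old cells). In male cells 7 of 8 were higher (median 1.32, 6 counted upward, with sums of 207 for females and 473 for males). The fibroblast markers include COL1A1, COL1A2 and COL3A1, already counted among the collagens, and COL2A1 is in the collagen and chondrocyte lists. Thus neither marker list was higher in old cells, where LUM, EPYC and DCN were, and both marker lists were higher in male cells, where all 8 genes were.

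Osteoblast markers (3 of 4 listed) had level ratios above 0 for 3 of 3 in both comparisons, with medians of 0.72 in old and 1.19 in male cells. Of these 3, 0 were counted upward in old cells and 2 in male cells. Their sums, mostly SPP1, were 115 in young and 190 in old cells, and 110 in female and 255 in male cells. Smooth muscle or pericyte markers were lower in old cells for 2 of 2 listed (median −0.22), and 2 of 4 were higher in male cells (median 0.13). They summed to 15.3 in young and 14.0 in old cells and to 15.0 in female and 20.9 in male cells. In the sex table, and named after their values were seen, ACTA2 had a log2 level ratio of 4.82, rank 2 from the top of all genes, and MYH11 had −0.77. The synovial lining markers PRG4, CLIC5 and TSPAN15 were listed in neither table. The same held for PTPRC, CD68, LYZ and CSF1R of 5 leukocyte markers and for PECAM1, CDH5 and KDR of 4 endothelial markers. The single leukocyte marker listed, CD14, stood at 3.55 in young and 4.26 in old cells and at 3.39 in female and 3.75 in male cells. The single endothelial one, VWF, stood at 1.12 and 1.34 by age and at 1.07 and 1.10 by sex. The part of these cell types in the results for the 8 genes was not tested.

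Genes of the most similar pattern were sought among 10275 genes with a symbol in both tables, as the smallest distance over the 4 log2 ratios of half-life and synthesis rate by age and by sex. CNMD (chondromodulin) was nearest to CHAD at a distance of 0.14; both stood at the ceiling half-life in every group, so this match rests on 2 level ratios. COL11A2 was nearest to BGN at 0.25 and CAVIN3 to PRELP at 0.12. DNER was nearest to FMOD (0.22), SPATA1 to DCN (0.29) and ANGPTL2 to CHADL (0.33). Lumican and epiphycan had no close match, their nearest genes being SCUBE2 at 0.90 and F5 at 1.03. These distances rest on 3 groups only and carry no error.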

How the data were processed

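Libraries were strand-specific after poly(A) selection, from RNA alkylated with iodoacetamide for 15 min at 50 °C, per the labels' protocols. Cutadapt 4.5, STAR 2.5.3 and EquCab3.0 are named in the submitters' processing notes. The kinetic model, annotation, gene filter and way of combining replicates were not given in the sources used here. The 2 deposited tables hold the authors' synthesis rate and half-life per gene and group, with 0 columns per sample; depth is therefore unknown. "Young" in the age table was read as young female, because the labels tie those samples to it. The ceiling of 69.3 h in every column equals a decay rate of 0.01 per h.

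With Python 3.11.15 and pandas 2.3.3, log2 ratios were computed without pseudocount or filter. Derived values were the level (synthesis rate × half-life / ln 2), the renewed share (1 − 2 to the power of −4 h / half-life) and their product; steady state is assumed. The calculations were tested on simulated data. Members, lists and thresholds were chosen with earlier results of these data known. Named genes were the members, listed relatives, and up to 3 counted genes per further list in each comparison. Single markers given with a ratio were chosen after their values were seen. Alternatives changed the threshold, centring, young female values and half-life range.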

Additional observations from a re-analysis of the deposited data

How the results depend on the processing

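No paired analysis was possible because each table holds 1 value per group, and leaving out replicates could not be run for the same reason. The limit for a shift in a median or single ratio was 0.09 on the log2 scale, and that for a count was 1.5 times. The 0.09 is the 95th percentile of the young female deviation between tables in synthesis rate, for half-lives over 10 h. As the largest over the parameters it was used for all of them, although the percentile for level was 0.00098. Taking young female values from the other table moved no count, median or single ratio. The limit for medians and single ratios was itself set from the deviation between tables, so this alternative says nothing on the stability of the ratios. At a threshold of 0.5, CHADL entered the lower counts by age, giving 1 each for synthesis rate and level. Centring on all genes left 1 longer half-life by sex, with a median of 0.24, and raised the synthesis median to 1.27. Centring within half-life deciles also left 1 longer half-life, with medians of 0.012 for half-life and 1.35 for level by sex. With 1 to 24 h required in both groups, EPYC alone remained by age, leaving a count of 1 each for synthesis rate and level and values of 2.40 and 2.61, and by sex no value was left. Without genes at the ceiling, an alternative chosen after seeing the data, the age medians were 0.42 for synthesis rate and 0.71 for level (7 genes). By sex (5 genes) the half-life median was 1.10, the synthesis median 0.79 and the level median 1.89, and 2 synthesis rates and 4 levels were counted upward; fewer genes were tested there. Of 144 alternative single ratios, 6 crossed the threshold (4 for FMOD and LUM half-lives, 1 for the FMOD synthesis rate, 1 for the DCN level, all by sex), and 11 changed sign. None of these 11 was counted; among them were the half-lives of CHADL (−0.10 and −0.33), BGN (−0.13 and −0.36) and PRELP (−0.13 within deciles) by sex under centring.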
